A study of Mus musculus with 6 samples.

Results

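Enzyme genes of arginine, polyamine and itaconate metabolism were followed in cultured mouse alveolar macrophages, the resident phagocytes of the air spaces of the lung. The members were taken as a list of 10 genes by name (Irg1, Nos2, Arg1, Arg2, Ass1, Asl, Odc1, Srm, Sms and Sat1), and all 10 were found among the 16840 gene symbols of the count table, with Irg1 standing for the gene now called Acod1. RNA sequencing had been done on 6 libraries from wild-type cells at day 2 of the treatment, in 3 groups of 2. Cells of the first group had no granulocyte-macrophage colony-stimulating factor (GM-CSF), those of the second had this cytokine alone, and those of the third had it together with an agent for which the labels give only the letters DON. The labels give no dose, no age or strain of the animals, no separate vehicle group, and both AM as a cell line and alveolar macrophages as a cell type, so whether the cells were primary is not known. Nor do they say that the replicates were separate cultures or animals, so the spread behind each p-value is that between libraries and may be technical.

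Arginine stands at a branch point in macrophages. Inducible nitric oxide synthase (Nos2) turns it into citrulline and nitric oxide, and the arginases (Arg1 in the cytosol, Arg2 in mitochondria) turn it into ornithine and urea. Argininosuccinate synthase (Ass1) and argininosuccinate lyase (Asl) rebuild arginine from citrulline. Ornithine decarboxylase (Odc1) makes putrescine from ornithine, spermidine synthase (Srm) and spermine synthase (Sms) extend it, and spermidine/spermine acetyltransferase (Sat1) marks polyamines for breakdown and export. Irg1 encodes the mitochondrial enzyme that makes itaconate from the TCA cycle intermediate cis-aconitate, and it is best known from activated macrophages.

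Total counts were between 28321986 and 35196387 per library, and mitochondrially encoded genes took between 2.22% and 3.28% of them. Macrophage markers were abundant: the summed level of 11 alveolar macrophage markers, all present in the table, was 10890 and 10220 CPM (counts relative to the library size, which was scaled by TMM, the trimmed mean of M values) without GM-CSF, 13050 and 13080 CPM with it, and 16980 and 16910 CPM with DON. The markers did not move together: Chi3l3 carried most of the increase, with 1809 and 1819, 5536 and 5551, and 7761 and 7643 CPM in the same order. Car4 had only 7 and 8 counts without GM-CSF and was at 661 and 652 CPM with it, while Cd68 went from 2898 and 2830 to 1653 and 1611 CPM, Emr1 from 299 and 279 to 54.1 and 54.7 CPM, and Fabp4 and Mertk were also lower in both GM-CSF libraries. Markers of other cells were low beside the macrophage sum, but not all were low beside the less abundant members. Irg1 was at most 25.7 CPM and Arg2 at most 8.20 CPM in any library, and Arg1 and Nos2 stayed below that. Summed levels lay between 8.65 and 28.2 CPM for 7 of 7 dendritic cell markers, between 16.4 and 102 CPM for 7 of 8 lung epithelium markers, between 0.614 and 1.63 CPM for 5 of 8 lymphocyte markers and between 0.43 and 1.91 CPM for 7 of 7 markers of stroma and endothelium. Most of the epithelial sum was Cdh1, while Sftpc had at most 1 count in any library. The dendritic sum was at most 8.92 CPM without GM-CSF and at least 25.5 CPM in the other groups, and the epithelial sum was at least 96.6 CPM with GM-CSF alone and at most 27.0 CPM in the other groups. Their part in the changes of the enzymes was not tested. The granulocyte markers are given beside Irg1.

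The enzymes covered a wide range of levels. Levels of different genes were compared only on the authors' FPKM scale, which divides by gene length. Without GM-CSF the order was Sat1 at 484 ± 13.1 FPKM (mean ± SD, n = 2 throughout), Ass1 at 68.8 ± 0.0253, Srm at 47.3 ± 2.80, Odc1 at 41.7 ± 4.52, Sms at 28.1 ± 1.75, Asl at 20.2 ± 1.14, Irg1 at 10.3 ± 0.346, Arg2 at 2.59 ± 0.432 and Arg1 at 0.164 ± 0.0043 FPKM. Nos2 came last, listed at 0 in replicate 1 and at 0.0074 FPKM in replicate 2. The libraries of neighbours in this order did not overlap.

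With GM-CSF the first 6 places were held by the same genes in the same order, from Sat1 at 236 ± 19.0 FPKM to Asl at 17.8 ± 0.893 FPKM, and Irg1 had moved from the seventh place to the ninth, below both arginases. With DON, Sat1 (459 ± 32.7 FPKM), Ass1 (228 ± 2.58), Srm (48.4 ± 0.59) and Odc1 (45.5 ± 0.538) again led. Asl and Sms, at 20.1 ± 1.65 and 20.0 ± 0.344 FPKM, overlapped there, as did Irg1 and Arg1 at 0.164 ± 0.0717 and 0.15 ± 0.0219 FPKM. Nos2 stood above both of the last pair, at 0.55 ± 0.0527 FPKM.

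**Figure D1:**
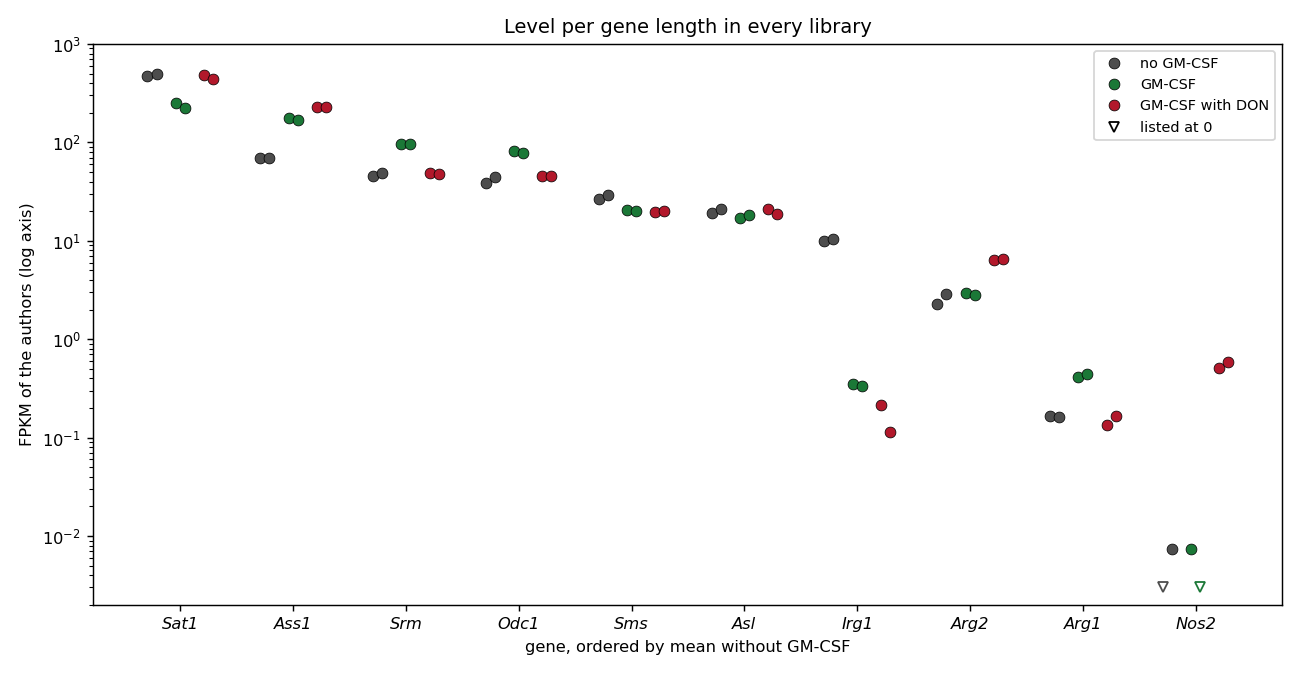
FPKM of the 10 enzyme genes (log axis) in each of the 6 libraries, ordered by their mean without GM-CSF; open triangles mark libraries in which Nos2 is listed at 0. Sat1 was the most abundant of these genes in all 3 groups, Irg1 fell from 10.3 to below 0.4 FPKM with GM-CSF, and Nos2 rose above 0.5 FPKM in the 2 libraries with DON.

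Start-site sequences are shown for the gene with the largest fall, Irg1, and for a pair of polyamine genes that moved in opposite directions in both comparisons below, Odc1 (synthesis) and Sat1 (breakdown). RefSeq promoters on GRCm38.p6 were at hand for 5 of the 10 members (these 3, Ass1 and Sms). The 250 bases before each RefSeq start, written 5′ to 3′ on the gene's strand, lie at chr14:103046762-103047011 on the plus strand for Irg1, chr12:17544623-17544872 on the plus strand for Odc1 and chrX:155216450-155216699 on the minus strand for Sat1. GENCODE M21 places the first exon of Irg1 and of Odc1 further upstream, inside these windows. Capitals mark matches to any of 8 motifs searched on both strands.
Irg1: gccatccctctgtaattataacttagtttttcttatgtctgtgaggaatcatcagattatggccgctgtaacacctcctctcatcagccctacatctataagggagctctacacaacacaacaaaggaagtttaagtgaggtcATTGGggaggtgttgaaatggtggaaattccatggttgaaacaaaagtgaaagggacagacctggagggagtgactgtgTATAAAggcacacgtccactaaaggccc
Odc1: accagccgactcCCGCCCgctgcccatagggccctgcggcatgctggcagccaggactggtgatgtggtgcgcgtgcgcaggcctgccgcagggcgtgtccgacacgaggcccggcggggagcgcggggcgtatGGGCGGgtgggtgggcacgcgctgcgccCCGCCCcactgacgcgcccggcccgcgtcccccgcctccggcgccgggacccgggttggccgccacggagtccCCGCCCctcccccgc
Sat1: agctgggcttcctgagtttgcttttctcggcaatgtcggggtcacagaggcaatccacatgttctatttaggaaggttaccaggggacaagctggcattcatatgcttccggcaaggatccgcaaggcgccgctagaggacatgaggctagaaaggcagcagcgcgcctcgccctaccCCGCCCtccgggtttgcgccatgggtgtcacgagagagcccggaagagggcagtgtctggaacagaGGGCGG

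The Irg1 window held a TATA box at positions -28 to -23 from the RefSeq start and a CCAAT box, on the reverse strand, at -107 to -103. Its GC content was 44.4%. The GENCODE start of Irg1, at 103046977, lies before that TATA box, so the position holds for the RefSeq start only. The Odc1 window was far richer in G and C, at 80% against a median of 52.4% over all promoters, and held 4 GC boxes and no TATA box. Its GC box at -15 to -10 lies after the GENCODE start of Odc1, at 17544794. Sat1, at 59.6% G and C, held 2 GC boxes. Among 32817 mouse promoter windows of the same length, a TATA box (TATAAA) was found in 12.4%, a CCAAT box (CCAAT) in 33.8% and a GC box (GGGCGG) in 32.7%. The other motifs were the E-box CACGTG (6.02% of windows), the AP-1 motif TGANTCA (6.75%), the cyclic AMP response element TGACGTCA (1.55%), the core GAAANNGAA of the interferon-stimulated response element (7.12%) and the NF-kB motif (7.25%), and none of these 5 was matched in the 3 windows printed. No marked match overlaps a match to another motif, and a match describes letters, not binding.

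What GM-CSF changed in these enzymes was asked first. With it came a lower level of the itaconate enzyme Irg1, a gain of Ass1 and of the polyamine-making enzymes Odc1 and Srm, and a fall of Sms and of the polyamine-degrading Sat1. In edgeR's quasi-likelihood test, adjusted over 12340 genes, 4 members rose and 3 fell at an adjusted p under 0.05, while among all genes tested 27.5% rose and 29.3% fell. Here and in the other comparisons the number of members called in a direction was within 2 genes of what the share over all genes would give for 10 genes. The median log2 fold change of the 10 was 0.09, beside -0.02 over all genes tested. All 10 members passed the filter on low counts, but Nos2 passed only through the libraries with DON and Arg1 only through those with GM-CSF alone, so these 2 had to differ between some groups. Of the 7 members above the filter's level in all 6 libraries, 3 rose (Ass1, Odc1 and Srm) and 2 fell (Sms and Sat1).

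**Figure D2:**
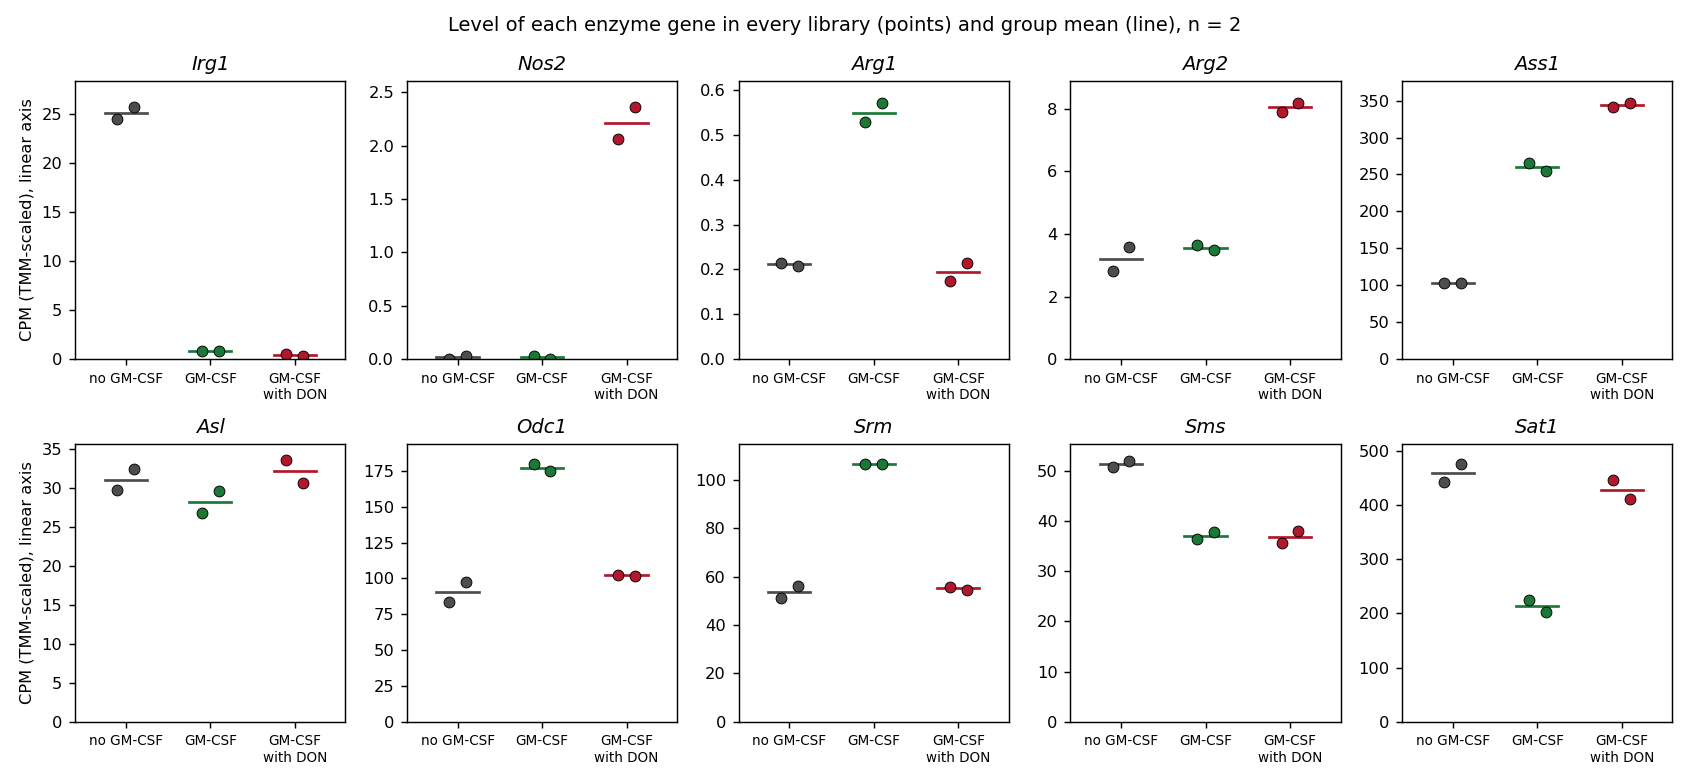
CPM of each enzyme gene on linear axes that start at 0, with 1 point per library and a line at the mean of each group (n = 2). Odc1 and Srm were high with GM-CSF alone, Sat1 was low there, and Nos2 was above 2 CPM only with DON.

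The effect of DON in the presence of GM-CSF was read against the libraries with the cytokine alone. Nos2 and Arg2 rose, Ass1 rose further, Odc1 and Srm fell and Sat1 rose. In the same test 4 members rose (Nos2, Arg2, Ass1 and Sat1) and 4 fell (Irg1, Arg1, Odc1 and Srm), where 28.8% of all genes tested rose and 28.8% fell. Of the 7 members above the filter's level everywhere, 3 rose and 2 fell. The median of the 10 was 0.09, beside 0.01 over all genes. Both comparisons use the same GM-CSF libraries, so the opposite signs of Odc1, Srm and Sat1 in them are not independent of each other.

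Cells with both GM-CSF and DON were also set against cells without GM-CSF. Against that group 4 members were higher (Nos2, Arg2, Ass1 and Odc1) and 2 lower (Irg1 and Sms), while 27.2% of all genes tested were higher and 28.4% lower. The median of the 10 was 0.04, beside 0.01 over all genes. Of the 7 members above the filter's level everywhere, 3 were higher and 1 lower.

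**Figure D3:**
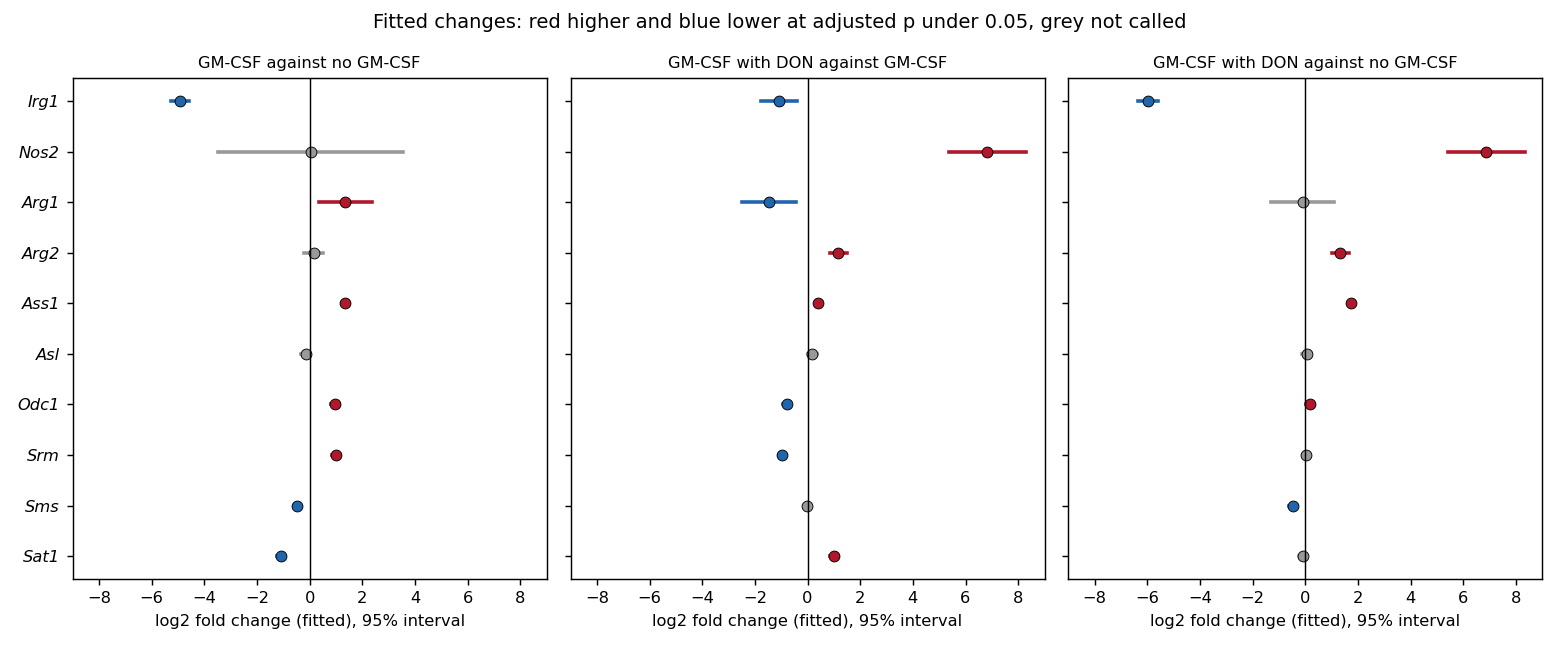
Fitted log2 fold changes (points) with 95% intervals (bars) of the 10 enzyme genes in the 3 comparisons; red and blue mark genes called higher or lower. The bars of Nos2 and Arg1 are wide because both had few counts: Nos2 had 1 count in all without DON in each of the other 2 groups.

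Irg1 was the member that fell most with GM-CSF. It had 795 and 866 counts without GM-CSF (24.4 and 25.7 CPM), 29 and 24 once the cytokine was present (0.851 and 0.806 CPM), and 15 and 9 after DON was added (0.524 and 0.276 CPM). The groups did not overlap, and both libraries without GM-CSF stood far above the other 4. Its log2 fold change with GM-CSF was -4.91 ± 0.15 (SE), about 30.1-fold lower, with an adjusted p of 3.84e-09 by edgeR. With DON it fell by a further 1.07 ± 0.31 on the log2 scale (adjusted p = 0.0129). That second fall rests on 24 counts against 53, a count ratio of 0.473 (95% counting interval 0.279 to 0.78). It was -0.65 (adjusted p = 0.167) without replicate 2 of the DON group and -1.03 (adjusted p = 0.0602) without replicate 1 of the GM-CSF group, and over all 14 alternatives the adjusted p lay between 0.00656 and 0.167.

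Granulocytes can also express Irg1, and their markers differed between the groups, not all in 1 direction. Of 10 granulocyte markers listed, 6 were in the table, and their summed level was 111 and 115 CPM without GM-CSF, 61.3 and 63.5 CPM with it, and 71.7 and 74.1 CPM with DON. Camp had at most 1 count in any library and Ltf at most 8, while S100a8 had 519 and 580 counts without GM-CSF and between 99 and 148 elsewhere. Csf3r went from 14.5 and 15.4 CPM without GM-CSF to 0.587 and 0.504 CPM with it and 1.08 and 0.799 CPM with DON, and Cxcr2 from 59.8 and 60.3 to 2.61 and 2.58 and then 8.81 and 7.99 CPM. Mmp8 went the other way, from 20.4 and 21.6 to 53.8 and 56.6 and then 57.8 and 62.2 CPM, and made up most of the sum in the last 2 groups. With DON the sum was higher than with GM-CSF alone and Irg1 was lower. S100a8 overlapped between these groups, at 4.34 and 3.76 CPM with GM-CSF alone and 3.78 and 3.04 CPM with DON. The part of granulocytes in the change of Irg1 was not tested. In bulk RNA fewer cells of a type and less RNA per cell cannot be told apart, here and in the results that follow.

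Nos2 was near 0 unless DON was present. It had 0 and 1 count without GM-CSF, 1 and 0 in the presence of the cytokine alone, and 59 and 77 with DON (2.06 and 2.36 CPM). Both DON libraries were above all 4 others, which did not differ from each other by more than 1 count. In the libraries at 0 the limit that a count of 0 allows, 3 counts, is 0.0922 CPM (no GM-CSF) and 0.101 CPM (GM-CSF). Against GM-CSF alone the summed counts, 136 against 1, stood in a ratio of 142 (95% counting interval 25.1 to 5650). The edgeR adjusted p was 1.34e-05, and 1.07e-05 against no GM-CSF. Nos2 passed the filter on low counts only through the DON libraries, so these p-values are no separate support for the difference. Its fitted log2 fold change depends on how counts of 0 are treated (2.65 to 9.12 over 13 alternatives), and all 13 kept the call. Per length, its level with DON was still low among the enzymes, at 0.55 ± 0.0527 FPKM.

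Arg1, the arginase of alternatively activated macrophages, had few counts in any group. There were 7 and 7 without GM-CSF, 18 and 17 in cells given the cytokine alone, and 5 and 7 with DON. The GM-CSF libraries were above all others, and the other groups overlapped. The count ratio of GM-CSF to no GM-CSF was 2.59 (95% counting interval 1.36 to 5.21), with an edgeR adjusted p of 0.024. That of DON to GM-CSF alone was 0.358 (0.169 to 0.706), with an edgeR adjusted p of 0.019. Arg1 passed the filter on low counts only through the libraries with GM-CSF alone, so these p-values are no separate support for the differences. Both calls were fragile: with 1 library left out of either group compared the adjusted p was above 0.05 in every case, and DESeq2 gave 0.209 and 0.166. Over 13 alternatives it ran from 0.00954 to 0.209 for the first and from 0.00688 to 0.166 for the second.

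Arg2, the mitochondrial arginase, was more abundant than Arg1 in every library. It stood at 2.83 and 3.60 CPM without GM-CSF, 3.64 and 3.49 CPM with it, and 7.90 and 8.20 CPM with DON. The first groups overlapped (log2 fold change 0.15, 95% interval -0.20 to 0.50, adjusted p = 0.439), and the DON libraries lay above all others. With DON Arg2 rose by 1.17 ± 0.14 against GM-CSF alone (adjusted p = 6.17e-05) and by 1.32 ± 0.14 against no GM-CSF (adjusted p = 2.74e-05). On the FPKM scale the ratio of Arg2 to Arg1 was 13.7 and 18.0 without GM-CSF, 7.15 and 6.35 with it, and 46.9 and 39.6 with DON. The ratio was lowest with GM-CSF alone and highest with DON, and the groups did not overlap, though its denominator rests on few counts.

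One limit applies to Arg2. Of its 1428 exonic bases in GENCODE M21, 285 are shared with Vti1b, a vesicle fusion gene on the opposite strand, and the strand setting of the counting is not given in the sources used here. Another gene on that strand, Gm48780, also overlaps its exons. It was not in the count table, and the length it shares was not measured. Vti1b was at 54.2 ± 0.160, 60.2 ± 1.16 and 72.5 ± 4.21 CPM in the 3 groups and rose by 0.27 ± 0.05 with DON (adjusted p = 0.00202). Its part in the change of Arg2 was not tested. The exons of the other 9 members overlapped no other annotated gene.

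Ass1 carried the largest increase among the abundant members. It stood at 103.1 and 102.9 CPM without GM-CSF, 265 and 255 CPM with it, and 342 and 346 CPM with DON. The 3 groups followed each other without overlap. Its log2 fold change was 1.34 ± 0.04 with GM-CSF (adjusted p = 4.96e-09), a further 0.41 ± 0.04 with DON (adjusted p = 1.9e-05), and 1.74 ± 0.04 between DON-treated cells and cells without GM-CSF, or 3.34-fold. Ass1 stayed high where Odc1 and Srm did not.

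Asl, the next enzyme on the same route, barely moved. Its levels were 29.7 and 32.4 CPM without GM-CSF, 26.8 and 29.6 CPM with it, and 33.6 and 30.6 CPM with DON. The highest and lowest of the 6 libraries differed by less than 7 CPM, and no comparison passed the test. The log2 differences were -0.14 (95% interval -0.31 to 0.03), 0.19 (0.01 to 0.36, adjusted p = 0.0608) and 0.05 (-0.13 to 0.22). The second of these passed the threshold under 6 of 14 alternatives, where the adjusted p ranged from 0.0448 to 0.354. The FPKM ratio of Ass1 to Asl was 3.55 and 3.28 without GM-CSF, 10.3 and 9.21 with it, and 10.7 and 12.2 with DON.

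The first enzymes of polyamine synthesis were high with GM-CSF alone. Odc1, often the rate-limiting step, was at 83.6 and 97.3 CPM without GM-CSF, 179.9 and 174.7 CPM with it, and 102.2 and 102.0 CPM with DON. Both GM-CSF libraries lay above the other 4. Odc1 rose by 0.97 ± 0.07 on the log2 scale with GM-CSF (adjusted p = 9.43e-07) and fell by 0.80 ± 0.07 with DON (adjusted p = 5e-06). Against no GM-CSF the DON libraries were 0.17 ± 0.07 higher, and this small difference was at the threshold: its adjusted p of 0.0474 rose above 0.05 under 10 of 14 alternatives, whose adjusted p ran from 0.00138 to 0.395. Without replicate 1 of the group without GM-CSF it was 0.07, and without replicate 2 it was 0.28.

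Srm followed the same course. Its levels were 51.2 and 56.2 CPM without GM-CSF, 106.7 and 106.4 CPM with it, and 55.8 and 54.5 CPM with DON, so that the GM-CSF libraries stood apart and the other groups overlapped. It rose by 0.99 ± 0.06 with GM-CSF (adjusted p = 2.42e-07) and fell by 0.95 ± 0.06 with DON (adjusted p = 5.64e-07). Between DON-treated cells and cells without GM-CSF the difference was 0.04 with a 95% interval of -0.09 to 0.17 (adjusted p = 0.597).

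Sms, which makes spermine, did not follow Srm. It was at 50.9 and 52.0 CPM without GM-CSF, 36.4 and 37.8 CPM with it, and 35.7 and 38.0 CPM with DON. The libraries without GM-CSF were the highest, and the others overlapped. It fell by 0.47 ± 0.06 on the log2 scale with GM-CSF (adjusted p = 5.46e-05). With DON the difference from GM-CSF alone was -0.01, with an interval of -0.14 to 0.12 (adjusted p = 0.922). Per length, the ratio of Srm to Sms was 1.69 and 1.68 without GM-CSF, 4.63 and 4.70 with it, and 2.47 and 2.37 with DON. An annotated pseudogene of Sms could share its reads, and how the authors' counting treated such reads is not given in the sources used here.

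Sat1, the catabolic enzyme, ran against Odc1. Its levels were 443 and 475 CPM without GM-CSF, 226 and 202 CPM with it, and 446 and 412 CPM with DON. The GM-CSF libraries were the lowest, and the others overlapped. Sat1 fell by 1.10 ± 0.06 with GM-CSF (adjusted p = 2.56e-07) and rose by 1.0 ± 0.06 with DON (adjusted p = 8.33e-07). DON-treated cells differed from cells without GM-CSF by -0.10, with an interval of -0.24 to 0.04 (adjusted p = 0.194). The FPKM ratio of Odc1 to Sat1 put both genes together: it was 0.0812 and 0.0911 without GM-CSF, 0.327 and 0.355 with it, and 0.0952 and 0.104 with DON. The GM-CSF libraries held the highest ratios, and those with DON lay above those without GM-CSF by less than the distance to GM-CSF alone.

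Other genes of the same pathways were read from 7 lists of 53 genes. Of these, 50 were in the table, 1 of them (Azin2) under its older symbol Adc, and 46 were tested. With GM-CSF, 20 of the 46 rose and 11 fell, with a median log2 fold change of 0.16. With DON against GM-CSF alone, 8 rose and 23 fell, with a median of -0.25, and against no GM-CSF 11 were higher and 19 lower, with a median of -0.16. Over all genes tested the shares called were 27.5% higher and 29.3% lower, 28.8% and 28.8%, and 27.2% and 28.4%, and the medians were -0.02, 0.01 and 0.01. These shares are the background for the calls in each list below, and they are not repeated for every list. There, genes beyond the 3 largest changes in each direction of a comparison were named after their values were seen.

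**Figure D4:**
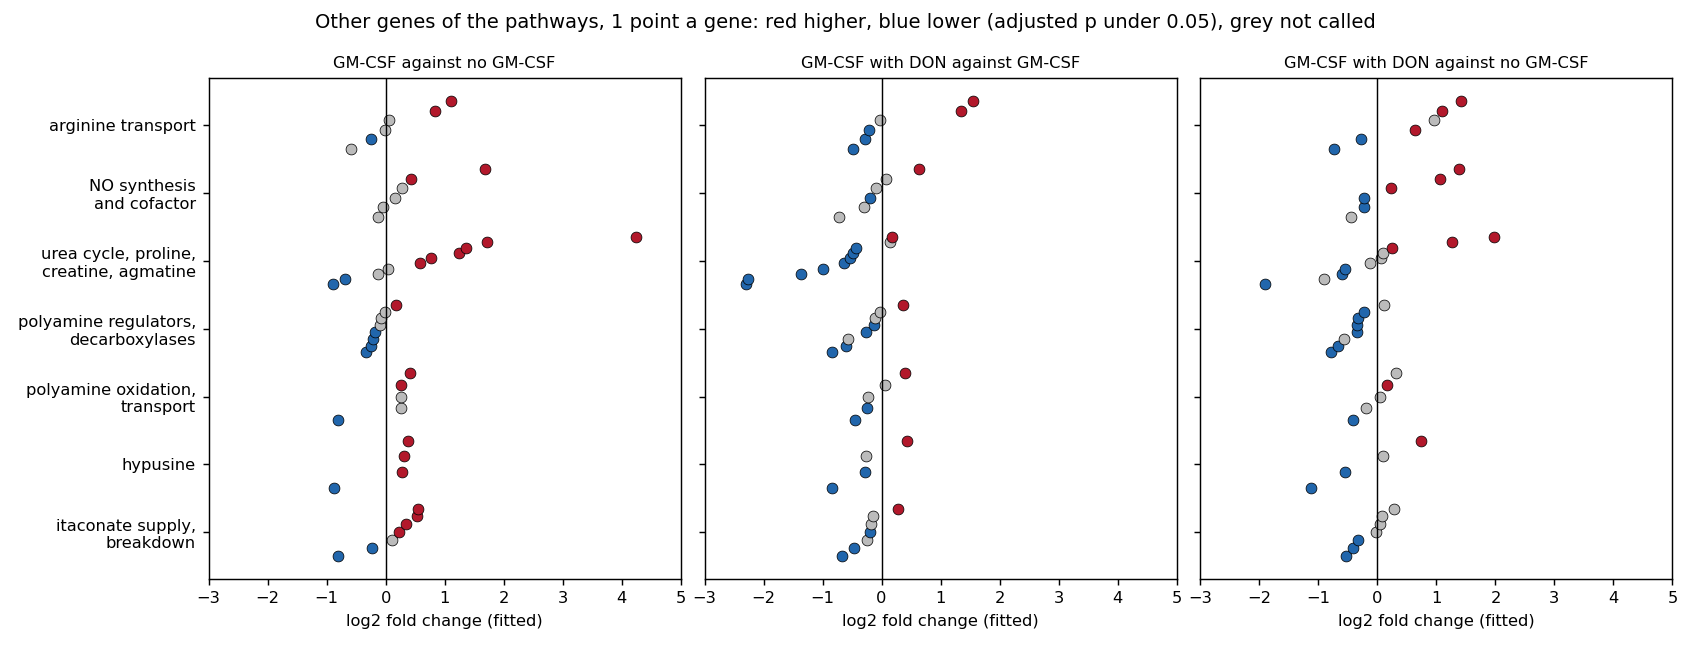
Fitted log2 fold changes of 46 other genes of arginine, polyamine and itaconate metabolism, 1 point per gene in 7 lists, for the 3 comparisons; red and blue mark genes called higher or lower. In the list of the urea cycle and of proline, creatine and agmatine, 6 of 10 genes rose with GM-CSF (27.5% of all genes tested) and 8 of 10 fell with DON (28.8% of all genes tested); this list was picked out of the 7 after its values were seen.

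Among 6 arginine transport genes, Slc7a1 and Slc7a2, which carry cationic amino acids into the cell, rose with GM-CSF and Slc7a6 fell. Slc7a1 was at 58.3 and 55.1 CPM without GM-CSF, 118 and 128 CPM with it, and 116 and 126 CPM with DON. It was 1.09 ± 0.06 higher on the log2 scale with DON than without GM-CSF (adjusted p = 2.51e-07). With DON, Slc3a2, the heavy chain shared by several amino acid exchangers, rose from 232 and 228 CPM to 607 and 570 CPM (1.35 ± 0.04, adjusted p = 2.77e-08). Slc7a3, at under 1 CPM in each group, rose as well, and Slc7a2, Slc7a6 and Slc7a7 fell.

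Several enzymes on either side of ornithine and arginine differed between the groups. Of 10 tested genes of the urea cycle and of proline, creatine and agmatine, 6 rose with GM-CSF and 2 fell, Gamt and Prodh, beside 27.5% and 29.3% of all genes tested. Aldh18a1, which starts proline and ornithine synthesis from glutamate, went from 24.4 and 23.9 CPM to 77.0 and 81.3 CPM with GM-CSF and to 59.0 and 57.7 CPM with DON. Its log2 fold change with GM-CSF was 1.71 ± 0.06, and it was still 1.27 ± 0.06 higher in DON-treated cells than without GM-CSF. Gatm, the first enzyme of creatine synthesis, which draws on arginine, rose with GM-CSF (1.24 ± 0.14) and fell with DON (-1.37 ± 0.14).

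Gamt, the second enzyme of creatine synthesis, fell in both steps. It was at 11.2 and 12.7 CPM without GM-CSF, 5.93 and 6.92 CPM with it, and 3.67 and 2.76 CPM with DON, a log2 difference of -1.90 ± 0.15 between the last and the first group. Nags, which makes the activator of the urea cycle, had 5 and 2 counts without GM-CSF, 57 and 74 with it, and 14 and 12 with DON. Of the same 10 genes 8 fell with DON and 1 rose, Aldh4a1, beside 28.8% in each direction over all genes tested. The changes given for Aldh18a1, Gatm, Gamt and Nags kept their calls in every alternative that tested them. Among pathway genes, alternatives were read only for the 3 largest called changes in each direction of a comparison. Slc7a1, Slc3a2, Pts, Amd1, Atp13a2, Dhps and Eif5a2, named in other paragraphs, also had such changes. Prodh, Aldh4a1 and the remaining named pathway genes were left out.

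Around nitric oxide synthesis, different genes were called with GM-CSF and with DON, with Pts in both. Nos1 and Nos3, the neuronal and endothelial synthases, had at most 3 counts in any library and were not tested. Of 6 genes tested, Pts and Ddah1 rose with GM-CSF and none fell, beside 27.5% and 29.3% of all genes tested, while Nos2 was not called. Ddah1, which breaks down methylated arginines that inhibit the synthases, went from 13 and 13 counts to 39 and 42 (1.69 ± 0.34, adjusted p = 0.00179). With DON Pts rose and Qdpr, which recycles the cofactor, fell by 0.19 ± 0.05 (adjusted p = 0.00537). Pts, an enzyme of the synthesis of tetrahydrobiopterin, the cofactor of nitric oxide synthases, was at 12.8 and 12.6 CPM without GM-CSF, 17.3 and 16.9 CPM with it, and 28.4 and 24.9 CPM with DON, where its rise over GM-CSF alone was 0.64 ± 0.08 (adjusted p = 8.59e-05). Gch1, the entry enzyme of that synthesis, was at 54.0, 49.1 and 45.9 CPM on average in the 3 groups and passed the test only between DON-treated cells and cells without GM-CSF (-0.23 ± 0.05, adjusted p = 0.00447).

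Among 8 tested regulators of polyamine synthesis, Mtap rose with GM-CSF, as Odc1 and Srm did, by 0.17 ± 0.06 (adjusted p = 0.0248), and Amd1, Oaz2, Azin1 and Mat2b fell. Amd1 makes the decarboxylated S-adenosylmethionine that Srm and Sms consume. It was at 110 and 114 CPM without GM-CSF, 99.9 and 98.3 CPM with it, and 67.2 and 63.4 CPM with DON, a log2 difference of -0.78 ± 0.05 between the last and the first group (adjusted p = 5.9e-07). Amd2, a near-identical copy, was at about 1 CPM, and reads could be split between both. With DON Mat2b rose, and Amd1, Oaz1, Mat2a and Mtap fell.

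Among 5 genes of polyamine oxidation and transport, Atp13a2, a lysosomal polyamine exporter, changed in the same direction as Sat1 with GM-CSF and with DON. It was at 612 CPM in both libraries without GM-CSF, 344 and 351 CPM with it, and 465 and 455 CPM with DON. It fell by 0.82 ± 0.04 on the log2 scale with GM-CSF (adjusted p = 5.76e-08) and rose with DON by 0.40 ± 0.04. Unlike Sat1, it was still lower in DON-treated cells than without GM-CSF (-0.41 ± 0.04, edgeR adjusted p = 7.82e-06). Atp13a3 went the other way in both comparisons, Smox rose with GM-CSF and Paox fell with DON.

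Spermidine is also used to form hypusine on the translation factor eIF5A. Of the 4 genes of this step, Dhps, Dohh and Eif5a rose with GM-CSF, and Eif5a2 fell (-0.87 ± 0.10). Eif5a itself was at 870 and 889 CPM without GM-CSF, 1079 and 1064 CPM with it, and 621 and 581 CPM with DON, where it was the lowest. Dhps, the enzyme that uses spermidine, rose again with DON, by 0.44 ± 0.07 (adjusted p = 0.000446), while Dohh and Eif5a fell. Eif5a2 was 1.13 ± 0.10 lower on the log2 scale with DON than without GM-CSF.

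Genes of itaconate supply and breakdown moved in both directions. With GM-CSF, Cs, which encodes citrate synthase, Sucla2 and Clybl rose, and the citrate carrier Slc25a1 and Suclg2 fell. With DON Slc25a1 rose and Cs and Sucla2 fell.

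The genes with the most similar course over the 6 libraries were looked up for the 6 members with a mean of at least 10 CPM, among 8164 genes at that level, by the Euclidean distance between log2 CPM values centred on each gene's mean. For Odc1 they were P2ry13 (distance 0.087) and Sae1 (0.149), and for Srm Nup107 (0.046) and Melk (0.099). For Sat1 they were Rragd (0.137) and Rilpl2 (0.154), and for Ass1 Mt2 (0.184) and Cfp (0.216). For Sms they were Hs6st1 (0.079) and Tmem184b (0.082), and for Asl Ormdl1 (0.046) and Renbp (0.079). Nup107, for example, averaged 23.2, 45.1 and 23.2 CPM in the 3 groups in the order used above, and Rragd 23.2, 10.8 and 23.0 CPM.

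In GRCm38 coordinates of GENCODE M21 all 10 members are protein-coding. Irg1 lies on chromosome 14 from 103046977 to 103056573, Nos2 on chromosome 11 from 78920787 to 78960254, Arg1 on chromosome 10 from 24915221 to 24927484 and Arg2 on chromosome 12 from 79130777 to 79156301. Ass1 lies on chromosome 2 from 31470207 to 31520672 and Asl on chromosome 5 from 130011258 to 130029247. Of the polyamine genes, Odc1 lies on chromosome 12 from 17544794 to 17551505, Srm on chromosome 4 from 148591503 to 148594993, and Sms and Sat1 on the X chromosome, from 157443855 to 157492287 and from 155213132 to 155216449. Counts were given per gene, without exons or isoforms.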

How the data were processed

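Gene counts and FPKM values, both made and deposited by the authors as tables of gene symbols, were used for all 6 libraries, and no column was left out. Per the submitters' processing notes the tools were DESeq2 1.28.1, STAR 2.6.0a, Subread 1.4.6 and featureCounts and the build was mm10, with no role or order. Annotation and strand setting: not given in the sources used here. For the members, gene length implied by dividing the deposited counts by FPKM varied by at most 3.11% (SD over libraries). No 2 replicate columns were identical, and replicates differed by more than sampling noise (chi-square per degree of freedom 4.50 to 8.46).

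Counts were fitted with edgeR 4.0.16 in R 4.3.3: filterByExpr (minimum count 10, which left 12340 genes), TMM scaling, 1 coefficient per group over all 6 libraries, and two-sided quasi-likelihood contrasts with p-values adjusted by Benjamini-Hochberg over the genes tested (3 residual and 6.74 prior degrees of freedom). The SE is the log2 fold change divided by the square root of F. Count ratios have exact conditional 95% intervals, which, like the limit of 3 counts, cover counting error only, since reads are not independent molecules. The fit was tested on simulated data. Alternatives used DESeq2 1.42.0, limma 3.58.1 on log2(FPKM + 0.1), other scalings, filters and sets of libraries, and the replicate number as a block.

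The members and lists were chosen with earlier results of these data known. All 10 members were to be named in each comparison, and of the pathway genes the 3 largest called rises and falls with a mean of at least 1 CPM. Tables and figures were made with Python 3.11.15. Values of 1 pathway gene are not reported here.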

Additional observations from a re-analysis of the deposited data

How the results depend on the processing

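Of 30 log2 fold changes (10 members in 3 comparisons), 19 kept their direction and their side of the threshold under every alternative that gave a value, at most 14 each. So did all 18 changes of pathway genes that were read there, the 3 largest in each direction of a comparison, in 250 refits. Arg1 with GM-CSF lost its call without a filter (1.36), in DESeq2 (1.39) and with libraries left out (1.31 to 1.42), and with DON in DESeq2 (-1.505) and with libraries left out (-1.62 to -1.34). The loss with libraries left out goes with fewer samples; the cause of the others was not tested. The fall of Irg1 with DON ran from -1.57 to -0.65 with 1 library left out. Odc1 in DON-treated cells against no GM-CSF lost its call under RLE scaling (0.17), in the replicate block (0.18), with only the 2 groups compared (0.18), in DESeq2 (0.17), in limma on FPKM (0.13) and without any 1 library but replicate 2 of the group without GM-CSF; leaving out 1 library gave 0.065 to 0.285, and the call was kept at 0.285. Asl with DON gained one under a filter at a mean of 1 CPM (0.19), with only the 2 groups compared (0.19) and without 1 of 4 libraries (0.184 to 0.259), but not without replicate 1 of the GM-CSF or of the DON group (0.112 and 0.119).

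Values with no call changed sign when 1 library was left out: with GM-CSF Nos2 (-2.26 to 2.31) and Arg2 (-0.011 to 0.335), with DON Sms (-0.050 to 0.035), and between DON and no GM-CSF Arg1 (-0.268 to 0.023), Asl (-0.022 to 0.116) and Srm (-0.032 to 0.104). In limma on FPKM Nos2 with GM-CSF was -0.00027 and Asl between DON and no GM-CSF was -0.0068. Leaving a group with 1 library assumes that it varies like the others.

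Total counts without a scaling factor moved the median of all genes from -0.02 to 0.10 with GM-CSF and from 0.01 to 0.11 between DON and no GM-CSF, and the share of calls that were higher from 48.4% to 63.0% and from 48.9% to 61.6%. The members' calls stayed the same.

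Libraries with the same replicate number did not clearly vary together. Differences between replicates correlated at -0.048 between no GM-CSF and GM-CSF, and at 0.070 between GM-CSF and DON. Between no GM-CSF and DON the correlation was -0.314, so a pairing under other numbers cannot be told from these values. The replicate block gave 6708, 6882 and 6542 changed genes in the 3 comparisons, against 7014, 7111 and 6859 without it, and changed no member's call but that of Odc1. With the numbers of the group without GM-CSF crossed, an alternative added after the data were seen, the counts were 7220, 7303 and 7063. Nos2 and Arg1, under 1 CPM where low, are limited by depth, and neither was tested under a filter at a mean of 1 CPM.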
